A study of Mus musculus with 6 samples.

Results

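The regions described here are the first 20 kb past the annotated 3′ ends of isolated genes in N2a cells, a cell line derived from a mouse neuroblastoma. A protein-coding gene on chromosomes 1 to 19 was taken when no other gene of any type, on either strand, lay within 20 kb past its end. The GENCODE M21 annotation used here holds 55450 genes, of which 20807 are protein-coding and lie on these chromosomes, and 4629 of them passed this rule. The other 16178 had a neighbour inside the window. H3K79me2, a dimethyl mark on lysine 79 in the core of histone H3, had been profiled by ChIP-seq, the sequencing of DNA bound to immunoprecipitated chromatin, and the deposited files are lists of called peaks with no read counts. The question was how often the mark reaches past a gene end, how far it runs, and whether both differ when NPM1 is depleted.

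The control group (CTR) had received a pLKO.1 plasmid with a non-target short hairpin RNA, shControl. The knockdown group (NPM1 KD) had received a pLKO.1 plasmid with a hairpin against Npm1, the gene of the nucleolar protein nucleophosmin. Both groups were collected after 3 days in vitro, and cells of the knockdown experiments were selected with puromycin from the day after transfection. Each group had 2 libraries, made from separate passages and transfections, and 1 hairpin sequence stood for the knockdown. 1 pooled input per group was not analysed here. The peak lists do not measure RNA, so the loss of Npm1 itself was not checked here. For the replicates that went into the ChIP-seq, the paper reports immunoblots with less NPM1 protein and more of the mark after knockdown.

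H3K79me2 is written by the methyltransferase DOT1L, which travels with elongating RNA polymerase II, and the mark is known to be densest over the first part of transcribed genes. At the end of a gene the transcript is cut behind a poly(A) signal, commonly AATAAA or ATTAAA, helped by GU-rich sequence downstream. The polymerase continues past this site before it is released, so transcription outlasts the annotated gene.

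The sequence just past the end is shown for 3 of the 4 genes with the longest runs of the mark and for the 4 with the shortest, to set both extremes side by side. A run is the distance from the gene end to the far edge of the broad peak that covers the last base of the gene, counted up to 20 kb. Each line gives the first 200 bases past the gene end, 5′ to 3′ on the strand of the gene, from the GRCm38 reference, with TGTGT in capitals as one GU-rich motif. The first 3 lines are from the longest runs.
Samd5, chr10:9622736-9622935, strand -: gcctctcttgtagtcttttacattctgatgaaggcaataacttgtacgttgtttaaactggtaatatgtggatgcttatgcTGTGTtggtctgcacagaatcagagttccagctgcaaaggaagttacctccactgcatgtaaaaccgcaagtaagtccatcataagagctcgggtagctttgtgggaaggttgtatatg
Tmem74, chr15:43864446-43864645, strand -: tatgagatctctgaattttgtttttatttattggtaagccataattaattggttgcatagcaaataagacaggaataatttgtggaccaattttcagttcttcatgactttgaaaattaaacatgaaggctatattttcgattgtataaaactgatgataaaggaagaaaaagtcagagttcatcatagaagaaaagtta
Prcp, chr7:92934584-92934783, strand +: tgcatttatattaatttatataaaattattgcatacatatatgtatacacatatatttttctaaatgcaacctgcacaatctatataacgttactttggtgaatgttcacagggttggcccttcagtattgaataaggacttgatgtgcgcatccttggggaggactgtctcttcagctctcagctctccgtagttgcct
The next 4 lines are the shortest runs.
Nupr1, chr7:126623049-126623248, strand -: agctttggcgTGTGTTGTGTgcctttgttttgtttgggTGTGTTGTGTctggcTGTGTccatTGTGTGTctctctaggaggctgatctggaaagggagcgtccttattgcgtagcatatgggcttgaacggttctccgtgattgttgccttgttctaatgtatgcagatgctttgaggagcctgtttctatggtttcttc
Sh2d6, chr6:72513441-72513640, strand -: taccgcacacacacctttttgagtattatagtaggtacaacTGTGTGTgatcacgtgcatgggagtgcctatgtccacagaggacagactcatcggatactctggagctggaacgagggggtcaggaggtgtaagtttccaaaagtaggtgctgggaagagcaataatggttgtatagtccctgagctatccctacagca
Gadd45g, chr13:51848469-51848668, strand +: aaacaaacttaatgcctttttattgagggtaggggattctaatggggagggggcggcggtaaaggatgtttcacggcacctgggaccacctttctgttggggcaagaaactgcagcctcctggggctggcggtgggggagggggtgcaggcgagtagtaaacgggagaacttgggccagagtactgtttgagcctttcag
B3galt6, chr4:155989266-155989465, strand -: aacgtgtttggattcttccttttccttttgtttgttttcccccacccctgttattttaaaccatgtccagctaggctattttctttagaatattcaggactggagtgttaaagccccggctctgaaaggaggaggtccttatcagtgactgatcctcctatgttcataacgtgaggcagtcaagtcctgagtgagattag
TGTGT occurred 7 times past Nupr1, a stress-induced nuclear protein gene, 2 times past Sh2d6, once past Samd5 and not in the other 4 stretches. Over all protein-coding genes, 40.4% had TGTGT in the first 200 bases on the gene's own strand. A match is a description of the letters and no evidence of use.

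The 4 libraries covered similar ground. Broad peaks covered 223 to 253 Mb of the genome, lowest in CTR 2 and highest in NPM1 KD 1. A background pileup was recovered from the fold and −log10 p of a sample of the narrow peaks. It is only a rough guide to sequencing depth, because how the background was made is not given. It came to 11.9 and 7.65 for CTR 1 and CTR 2, and to 8.99 and 11.8 for NPM1 KD 1 and NPM1 KD 2. CTR 2 was lowest in both pileup and covered length, whereas NPM1 KD 1 had a lower pileup than CTR 1 and covered more. Whether depth bears on the covered length was not tested. Of 13 neuroblastoma and neuronal markers, 10 carried broad peaks over gene body and upstream 3 kb in every library, while 3 carried none, among them Dcx and Nefm. None of 9 markers of blood, liver, epithelium, muscle or lung did.

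Windows past isolated gene ends were nearly bare of H3K79me2. Broad peaks covered 1.03% of the window bases in CTR 1 and 0.880% in CTR 2, against 1.27% and 1.14% in NPM1 KD 1 and 2. Both NPM1 KD libraries were above both CTR libraries. CTR had a mean of 0.957% ± 0.109 and NPM1 KD one of 1.21% ± 0.0937 (SD, n = 2), a ratio of 1.26 (two-sided exact permutation p = 0.33). This is the smallest p that 2 libraries against 2 allow, so no difference of a single value per library can be called. Narrow peaks covered 1.03%, 0.872%, 1.07% and 1.06% in the same order, with a ratio of 1.12.

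The windows with another gene inside carried far more of the mark, 17.1% to 20.1% of their bases, and their ratio of NPM1 KD to CTR was 1.09. The share in isolated windows was 5.61% of the share in the other windows in CTR 1 and 5.14% in CTR 2, against 6.33% and 6.09% in NPM1 KD 1 and 2. The difference in isolated windows was thus larger in proportion than in the others in this ordering of the libraries (two-sided exact permutation p = 0.33). Just inside the 20 kb rule, the 888 genes whose next gene lay 20 to 25 kb away had 1.14% to 1.65% of the window covered. Just outside it, the 1283 genes whose next gene lay 15 to 20 kb away had 3.49% to 4.29%, and 1.47% to 2.09% in their first 15 kb, which held no other gene. Windows of 514 isolated genes shared bases with the window of another, so not every window is a separate stretch.

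The mark fell steeply across the gene end. In the profile over all 4629 genes, broad peaks covered 14.9%, 14%, 16.2% and 15.5% of the bases 20 to 19 kb before the end in CTR 1, CTR 2, NPM1 KD 1 and NPM1 KD 2. In the last 1 kb of the gene side the values were 6.61%, 5.77%, 7.32% and 6.91%. In the first 1 kb past the end they were 4.45%, 3.83%, 5.34% and 4.65%. At 5 to 6 kb past the end 0.682% to 1.08% was covered, and from there to the far edge each step of 1 kb stayed between 0.358% and 1.08%. Both NPM1 KD libraries were above both CTR libraries in all 40 steps of 1 kb, before as well as after the end. With narrow peaks this order was lost in some steps past the end. At 6 to 7 kb CTR 1 had 0.855%, against 0.793% and 0.822% in NPM1 KD 1 and 2. At 13 to 14 kb it had 0.688%, against 0.604% and 0.675%. Neighbouring steps share peaks and are not independent.

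**Figure D1:**
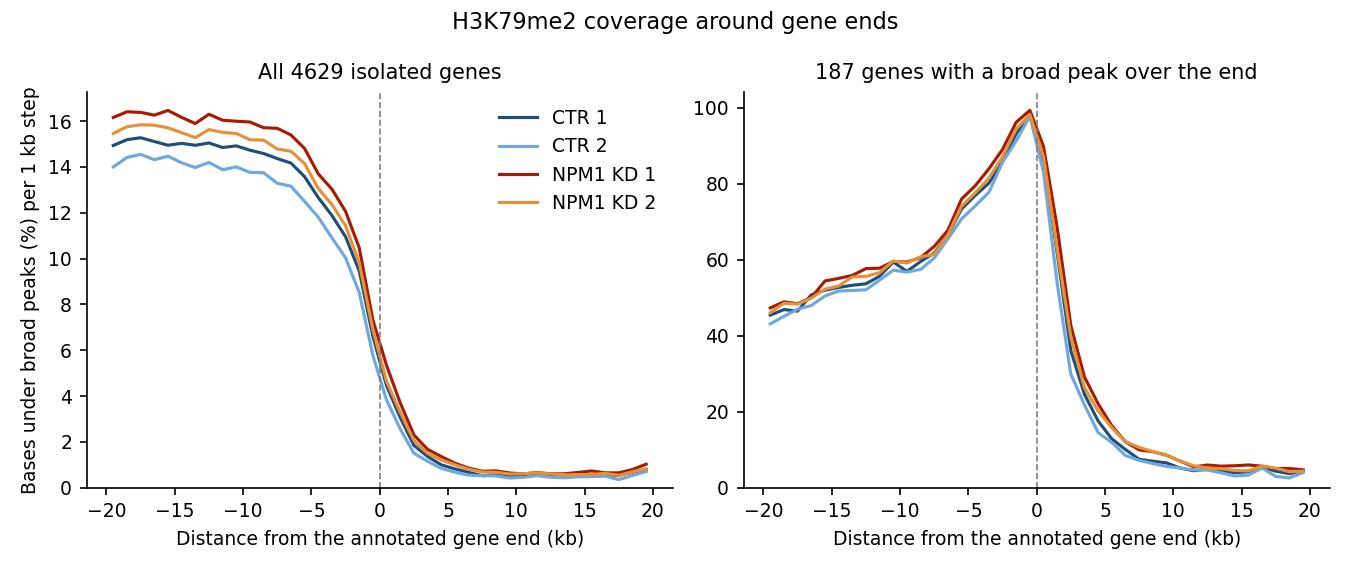
Share of bases under broad H3K79me2 peaks in each 1 kb step from 20 kb before to 20 kb past the annotated gene end (x axis, kb), for each of the 4 libraries (lines). Coverage of all 4629 isolated genes drops from about 15% to under 1.1% within 6 kb of the end, and that of the 187 genes with a peak over the end peaks at the end itself.

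The 4629 genes divided unevenly. A broad peak lay over the gene end in all 4 libraries at 187 genes, 4.04%, and in 1 to 3 libraries at 121. Another 1590 genes carried a broad peak in the gene body or the 3 kb upstream in every library but never over the end, and 113 did so in some libraries. The remaining 2618 genes had no broad peak in body or upstream part in any library. Windows of the 187 genes were covered over 14.1% to 18.3% of their bases, against 0.330% to 0.590% past genes marked elsewhere and 0.133% to 0.179% past unmarked genes. The 187 were chosen by coverage of the last base, so the step to the first bases past it is fixed by that choice.

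The number of genes with a broad peak over the end was 241 in CTR 1 and 208 in CTR 2, against 268 and 251 in NPM1 KD 1 and 2. The groups did not overlap, and the mean was higher by 35 genes in NPM1 KD (two-sided exact permutation p = 0.33, the smallest possible). Without CTR 2 the difference was 18.5 genes. With narrow peaks the numbers were 191, 167, 192 and 189, and NPM1 KD 2 fell below CTR 1. The number of genes marked at all differed little, at 1967, 1915, 1980 and 1953, with CTR 1 above NPM1 KD 2.

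Gains and losses at single gene ends were few. A broad peak lay over the end in both NPM1 KD libraries and neither CTR library at 14 genes, 4.55% of the 308 with a peak over the end in any library, against 4.08% of 3164 among all protein-coding genes. Among them, Atp6v1c1, a subunit of the vacuolar proton pump, had runs of 3347 and 2180 bp in NPM1 KD 1 and 2. Dnajb12, a chaperone of the endoplasmic reticulum, had runs of 4568 and 113 bp, and Mtdh had 3856 and 212 bp. The other 11 genes had runs of 58 to 1102 bp, so most of these ends were crossed by a short margin. The reverse pattern was seen at 1 gene, 0.325% of the 308 against 0.632% of all. This was Gnas, the imprinted gene of the stimulatory G protein subunit, with runs of 603 bp in CTR 1 and 232 bp in CTR 2. Gnas and the 14 genes were singled out after their values were seen.

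At the 187 ends covered in every library, the run past the end was mostly 1 to 5 kb. Its median was 1879 bp in CTR 1 and 1613 bp in CTR 2, against 1996 bp and 1913 bp in NPM1 KD 1 and 2, so the libraries were close to each other and NPM1 KD 2 exceeded CTR 1 by little. CTR had a mean of these medians of 1746 ± 188 bp and NPM1 KD one of 1955 ± 58.7 bp (SD, n = 2), a difference of 208.5 bp (two-sided exact permutation p = 0.33). Without CTR 2 the difference was 43.25 bp, and without CTR 1 it was 389.5 bp. The upper 10% of the runs began at 5351, 5297, 6239 and 6211 bp in CTR 1, CTR 2, NPM1 KD 1 and NPM1 KD 2. There the 2 libraries of each group lay close together and the groups apart.

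Gene by gene, the run was longer in both NPM1 KD libraries than in both CTR libraries at 75 of the 187 genes, 40.1%, and shorter in both at 14, 7.49%. The same orders were found at 32.5% and 6.18% of the 1991 protein-coding genes with a covered end, isolated or not. The share at isolated ends is read against these: longer runs outnumbered shorter ones at covered gene ends of any kind. The mean run was longer in NPM1 KD at 138 genes and shorter at 47, with a median difference of 183.5 bp. The median difference between the 2 libraries of 1 group was 226 bp for CTR and 315 bp for NPM1 KD, and that between the group means was 329.5 bp in size.

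The limma test on log2(run in bp + 1000), fitted on all 1991 genes, called 38 of them at an adjusted p under 0.05, which is 1.91%, and 0 of the 187 isolated genes. Without CTR 2, NPM1 KD 1 or NPM1 KD 2, or with the replicate number as a block, it called 0 of all genes. Among the 187, 32 were longer and 3 shorter in NPM1 KD at an unadjusted p under 0.05. Over all 1991 genes tested, 184 were longer and 13 shorter. The smallest limma adjusted p among the 187 was 0.0536, at Arf6, a small GTPase of membrane traffic. The median log2 difference, NPM1 KD minus CTR, was 0.09 over the 187 genes and 0.05 over all genes tested.

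**Figure D2:**
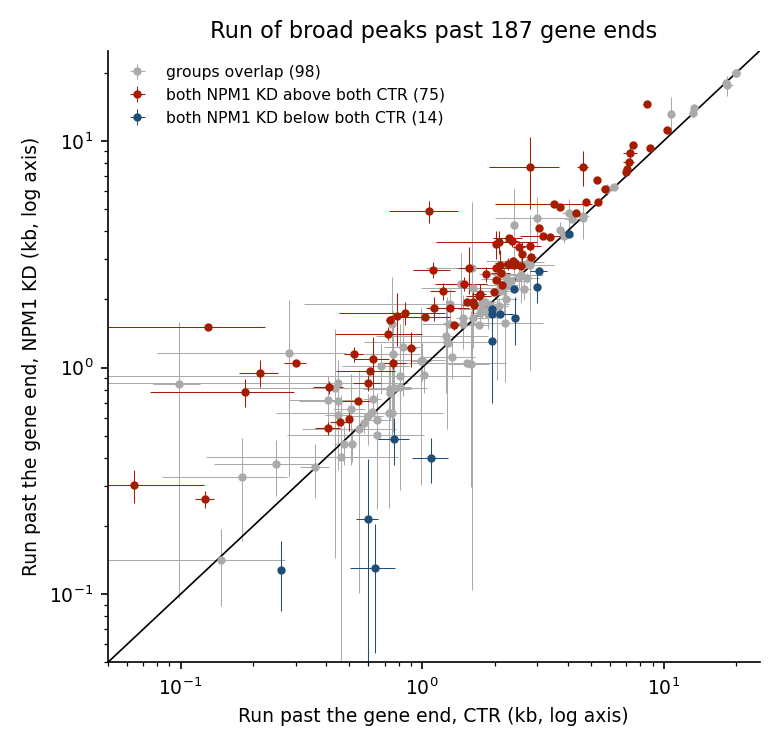
Run of the broad peak past the gene end in kb, CTR (x axis) against NPM1 KD (y axis), both on log axes, for the 187 genes with a broad peak over the end in all 4 libraries. Points are means of 2 libraries, bars reach to the 2 single libraries (some leave the plot at the lower edge), and the line marks equal values: 75 genes lie above it and 14 below it with groups that do not overlap.

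The orders were uneven across run lengths. Runs under 500 bp were seen at 15 genes, 500 to 1000 bp at 38, 1 to 2 kb at 52, 2 to 5 kb at 59, 5 to 10 kb at 14 and 10 kb or more at 9. In the class of 5 to 10 kb, both NPM1 KD libraries ran further than both CTR libraries at 12 of 14 genes and less far at 0. In the class under 500 bp, 4 ran further and 3 less far, and at 10 kb and more 2 of 9 ran further and 0 less far. The classes of 500 to 1000 bp, 1 to 2 kb and 2 to 5 kb had 12, 17 and 28 genes further and 2, 4 and 5 less far. These classes were set by the mean run of the same libraries and are given as a description. They were not counted over all 1991 protein-coding genes with a covered end, where 32.5% ran further and 6.18% less far. Whether 12 of 14 is particular to isolated ends can therefore not be read.

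The longest runs were held by genes of varied function. Foxd1, a forkhead transcription factor gene, and Samd5 reached the limit of 20000 bp in each library, so their runs were not resolved further. With narrow peaks Foxd1 still reached 20000 bp in each, whereas Samd5 had 8740, 8755, 8711 and 8687 bp. Tmem74, a lysosomal membrane protein gene, had runs of 18055, 18131, 18141 and 18024 bp in CTR 1, CTR 2, NPM1 KD 1 and NPM1 KD 2, which overlapped. Prcp, encoding a lysosomal carboxypeptidase, had 19348, 17295, 15790 and 19344 bp, and with narrow peaks 6279, 6356, 7206 and 7187 bp. The 2 NPM1 KD libraries of Prcp were further apart than the group means.

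Btg1, an antiproliferative gene, had runs of 13037, 13562, 14528 and 13445 bp in the same order of libraries. Zc3h15, a zinc finger protein gene, had 13484, 13015, 12798 and 13652 bp, but with narrow peaks its runs were 39, 104, 78 and 12902 bp. Lcor, a corepressor of nuclear receptors, had 10432, 10964, 10763 and 15643 bp, with NPM1 KD 2 alone standing out. None of these 3 genes separated the groups by run.

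Arf6 did. Its run was 8778 bp in CTR 1 and 8234 bp in CTR 2, against 14777 bp and 14373 bp in NPM1 KD 1 and 2. Both NPM1 KD runs were longer by over 5 kb, with a log2 change of 0.71 ± 0.04 (SE) and a limma adjusted p of 0.0536. The window past Arf6 held 12142, 12710, 15372 and 15281 bp in CTR 1, CTR 2, NPM1 KD 1 and NPM1 KD 2. Both CTR libraries thus had covered bases beyond the run, and window coverage changed less (log2 change 0.28 ± 0.04, limma adjusted p = 0.329). With narrow peaks the runs were 8765, 8065, 8874 and 14362 bp, and NPM1 KD 1 lay next to CTR. The Arf6 gene is 1634 bp long (chr12:69372150-69373783, plus strand) and was fully covered in all libraries, so the mark extended several times further past the gene than along it.

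At Ing2, a reader of histone methylation, the run was 5368, 5237, 6769 and 6663 bp in CTR 1, CTR 2, NPM1 KD 1 and NPM1 KD 2, with no overlap of the groups (log2 change 0.29 ± 0.02, limma adjusted p = 0.0636). Atpif1, an inhibitor of mitochondrial ATP synthase, had short runs of 268, 331, 1011 and 1081 bp (0.66 ± 0.04, limma adjusted p = 0.0562). Ddit4, a stress-induced inhibitor of mTORC1, had 766, 708, 1690 and 1542 bp (0.59 ± 0.04, limma adjusted p = 0.0768). All 3 ran further in both NPM1 KD libraries, and none passed the threshold. They were named after their values were seen, as those next to Arf6 in the order of adjusted p.

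The shortest runs moved in both directions. Nupr1 had runs of 272, 22, 193 and 89 bp in CTR 1, CTR 2, NPM1 KD 1 and NPM1 KD 2, with overlap. Gadd45g, a growth arrest gene, had 263, 256, 172 and 84 bp, both NPM1 KD values being lower. B3galt6, a galactosyltransferase gene, had 138, 115, 240 and 286 bp, and both NPM1 KD values were higher.

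Coverage of the whole 20 kb window was tested next, because the mark also appeared in pieces beyond the run. Of the 312 isolated windows covered in all 4 libraries, both NPM1 KD libraries had more covered bases than both CTR libraries at 151, 48.4%, and fewer at 21, 6.73%. Over the 7542 windows of all protein-coding genes covered in all libraries, these shares were 41.6% and 3.25%. In limma on log2(covered bp + 1000), 0 of 8682 windows with any coverage were called, 0%, among them 503 isolated ones. At an unadjusted p under 0.05, 91 of the 503 isolated windows were higher and 7 lower in NPM1 KD. Over all 8682 windows tested, 961 were higher and 29 lower, so the tilt upward was not particular to isolated windows. Among the 91, 17 were bare in both CTR libraries, such as that of Cdc40, and so could enter through NPM1 KD alone. The counts over the 312 windows covered in all libraries were 63 and 5. The median log2 difference was 0.19 over the isolated windows and 0.10 over all windows tested.

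The 6 windows with the largest gain in mean coverage and no overlap of the groups were chosen for that order, which is a description. Igip, an IgA-inducing protein gene, had 5612 and 5741 bp covered in CTR 1 and 2, against 13390 and 8022 bp in NPM1 KD 1 and 2. Defb42, a beta-defensin gene, had 2992, 3661, 7878 and 8023 bp. Smc5, of the SMC5/6 DNA repair complex, had 4043, 2678, 6066 and 8780 bp. At Igip and Smc5 the NPM1 KD libraries lay further apart than the CTR libraries.

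Frg1, an RNA-associated nuclear protein gene, had 13751, 13004, 16710 and 18094 bp covered in the same order. Mrps30, of the mitochondrial ribosome, had 6299, 4730, 9252 and 9281 bp. Atp6v1c1 had 7249, 5518, 10841 and 9181 bp. The log2 changes of the 6 genes were 0.77 ± 0.28 for Igip, 1.05 ± 0.10 for Defb42, 0.95 ± 0.27 for Smc5, 0.36 ± 0.06 for Frg1, 0.67 ± 0.15 for Mrps30 and 0.58 ± 0.17 for Atp6v1c1 (SE), and limma adjusted p ranged from 0.295 at Defb42 to 0.469 at Igip. With narrow peaks all 6 kept their direction and the separation of the groups. With only peaks at a −log10 q of at least 5, the difference at Atp6v1c1 turned to -704.5 bp the one at Defb42 was 853 bp, and the groups overlapped at Smc5.

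The 6 largest losses were smaller. The window of Olfr136, an olfactory receptor gene with no peak on its body, had 1309 and 724 bp covered in CTR 1 and CTR 2 and 0 in both NPM1 KD libraries. Asns, encoding asparagine synthetase, had 2393, 2466, 2050 and 1258 bp in CTR 1, CTR 2, NPM1 KD 1 and NPM1 KD 2. Blm, a DNA helicase gene, had 3149, 3588, 2629 and 2343 bp.

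Vax1, a homeobox gene, had 3032, 2952, 2613 and 1923 bp, Rps15a, of the small ribosomal subunit, had 910, 1277, 311 and 488 bp, and Zfp207 had 2314, 3179, 1838 and 2274 bp. The differences of the means ranged from -690.5 bp at Zfp207 to -1016.5 bp at Olfr136, against gains of 3628 to 5030 bp in the 6 windows above. With narrow peaks the groups stayed apart at Olfr136 and overlapped at the other 5, and the difference at Asns was 80.5 bp upward. With a −log10 q of at least 5 the difference at Olfr136 was 0 bp, and the groups overlapped there and at Zfp207. Limma adjusted p was 0.363 to 0.601 for the 6 losses.

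**Figure D3:**
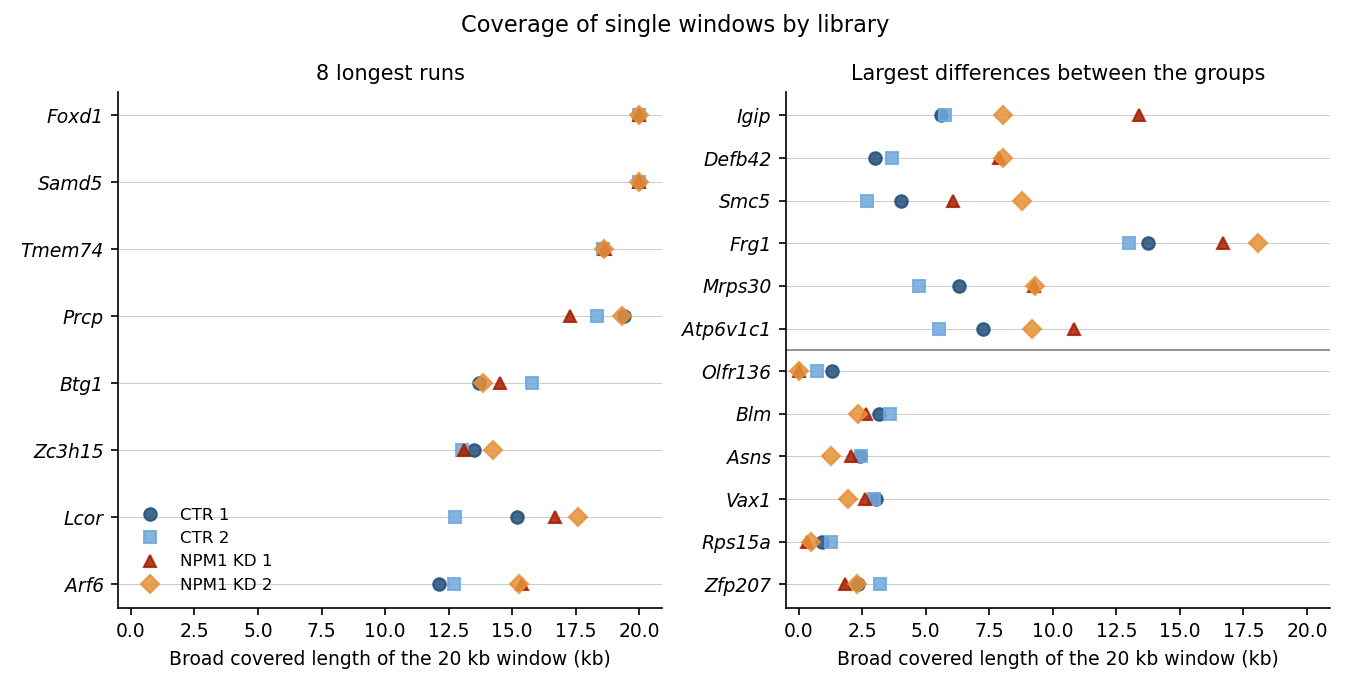
Covered length of the 20 kb window past the gene end in kb (x axis) for single genes, with 1 symbol per library. On the left the 8 genes with the longest runs, where Foxd1 and Samd5 fill the window in all 4 libraries. On the right the 6 largest gains (above the grey line) and 6 largest losses in NPM1 KD, where gains of 3.6 to 5.0 kb face losses of at most 1.0 kb.

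Covered ends were mostly those of short genes. Of isolated genes with a broad peak in body, upstream part or over the end in all libraries, the end was covered in all 4 at 105 of 279 genes under 10 kb (37.6%, exact 95% interval 31.9 to 43.6), at 63 of 779 genes of 10 to 50 kb (8.09%, 6.27 to 10.2), at 16 of 638 of 50 to 200 kb (2.51%, 1.44 to 4.04) and at 3 of 201 of 200 kb or more (1.49%, 0.309 to 4.30). The intervals cover counting error only. The far edge of a broad peak over the first base was measured from the gene start, also where it lay past the gene end. With such a peak in all libraries, the median edge lay at 4.95 kb in 139 genes under 10 kb. In the longer classes it lay at 12.3 kb (344 genes), 24.8 kb (244) and 41.1 kb (65). The edge thus lay further out in longer genes but ever further from the end.

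Once an end was covered, the run depended little on gene length. The median run was 1917 bp in genes under 10 kb, 1644 bp at 10 to 50 kb, 1730 bp at 50 to 200 kb and 1427 bp in the 3 longest. Spearman's rho between run and gene length was -0.03 over the 187 genes, which share the 4 libraries. The 3 longest genes were Cacna1a, a calcium channel subunit, Plcxd3 and Tenm3, a teneurin adhesion receptor. Plcxd3 had runs of 1403 and 727 bp in the CTR libraries and 4353 and 5423 bp under NPM1 KD (log2 change 1.52 ± 0.24, limma adjusted p = 0.246), whereas those of Cacna1a were 474 and 1051 against 613 and 1005 bp, and those of Tenm3 1588 and 998 against 1596 and 1526 bp. The window of Plcxd3 held 3756 and 3101 bp in CTR 1 and 2 and 4837 and 5423 bp in NPM1 KD 1 and 2. CTR thus had covered bases beyond the run, and window coverage changed less (log2 change 0.47 ± 0.11, limma adjusted p = 0.3945).

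**Figure D4:**
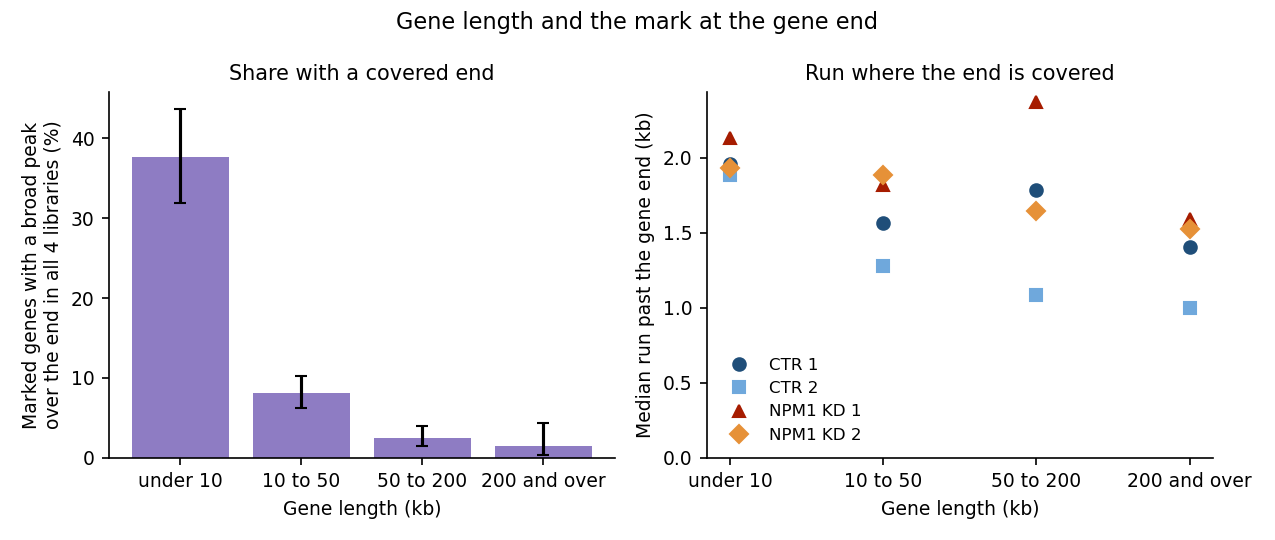
Left, share (%) of marked isolated genes whose end lay under a broad peak in all 4 libraries, by gene length in kb, with exact 95% intervals; the share falls from 37.6% under 10 kb to 1.49% at 200 kb or more. Right, median run past the end in kb at the covered ends for each library, between 1.0 and 2.4 kb in every length class.

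The mark ran further past the end than upstream of the start. At the 37 genes that were isolated on both sides and covered at both ends in every library, the median run past the end was 1962, 1695, 2294 and 2178 bp in CTR 1, CTR 2, NPM1 KD 1 and NPM1 KD 2. Upstream of the first base it was 519, 447, 864 and 466 bp. The downstream run was longer in 4 of 4 libraries, by 1458 ± 191 bp on average (SD, n = 4; exact paired permutation test, two-sided, p = 0.125, the smallest that 4 pairs allow).

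The covered length of the windows came from 3 sources. Runs of the 187 genes made up 498 kb in CTR 1 and 461 in CTR 2, against 568 and 543 in NPM1 KD 1 and 2, a ratio of NPM1 KD to CTR of 1.16. Runs at ends covered in only some libraries made up 32.8, 13.9, 74.3 and 52.0 kb. These ends entered through the libraries that covered them, and the same lengths were not measured over all protein-coding genes. Pieces apart from any run made up 427, 340, 538 and 462 kb, a ratio of 1.30. The first and the last were higher in both NPM1 KD libraries (two-sided exact permutation p = 0.33 each). With narrow peaks the pieces apart from a run made up 629, 508, 645 and 597 kb. There NPM1 KD 2 fell below CTR 1, and the ratio was 1.09 (two-sided exact permutation p = 0.67).

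Gene bodies were measured in the same way. The bodies of the 4629 genes were covered over 63.1, 60.0, 67.2 and 65.5 Mb in CTR 1, CTR 2, NPM1 KD 1 and NPM1 KD 2, a ratio of 1.08. Window bases per body base were 0.0152, 0.0136, 0.0176 and 0.0162, with NPM1 KD above CTR in each library (ratio 1.17, two-sided exact permutation p = 0.33). With narrow peaks this ratio was 1.06. At the 187 genes the body was covered over 82.9% to 85.5%.

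**Figure D5:**
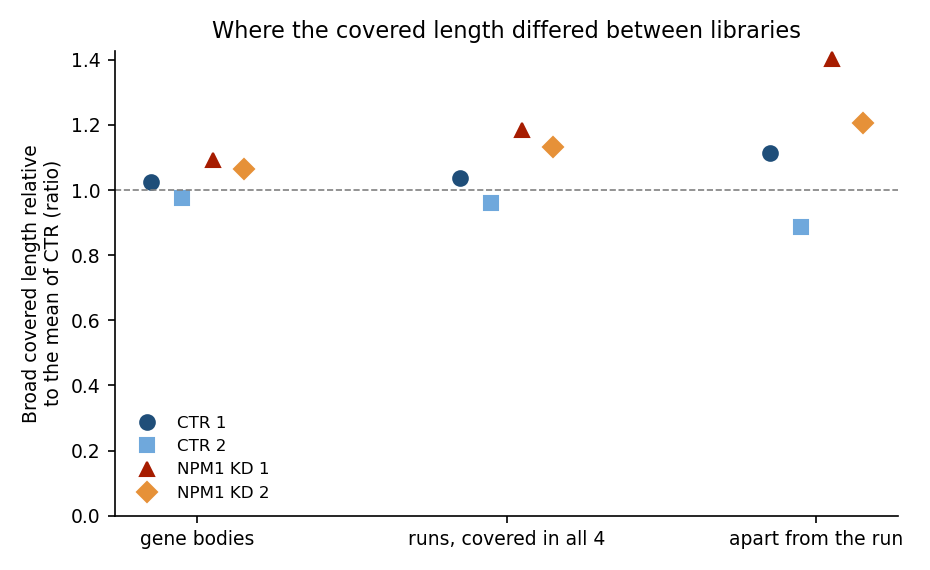
Broad covered length in each library divided by the mean of the 2 CTR libraries (y axis, ratio), for gene bodies, for runs of the 187 genes and for pieces of the window apart from a run. Gene bodies stay within 0.97 to 1.09 of the CTR mean, whereas pieces apart from a run spread from 0.89 to 1.40, with CTR 1 and CTR 2 also apart. With narrow peaks, which are not drawn, these pieces were shorter in NPM1 KD 2 than in CTR 1.

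Some windows carried the mark although the gene end did not. A window was covered in all 4 libraries with no peak over the end in any at 81 genes, of which 51 were themselves marked elsewhere. Coverage reached the far edge of the window, towards the next gene, at 19 of the 81, and touched the first 5 kb at 27. Both NPM1 KD libraries were above both CTR libraries at 42 of the 81, 51.9%, and below at 8, 9.88%, against the 48.4% and 6.73% of all isolated covered windows.

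The largest of these lay past Lamp3, a lysosomal membrane glycoprotein gene with no peak on its body, where 18392, 19259, 19384 and 19500 bp were covered in CTR 1, CTR 2, NPM1 KD 1 and NPM1 KD 2. The next annotated gene, a pseudogene, began 21035 bp away. Past Tmem52, whose body was also bare, 8519, 8647, 9724 and 8540 bp were covered, and Gnb1, a G protein subunit gene read in the same direction, began 20502 bp away. Golga5, of the Golgi, had 7262, 8506, 7512 and 6962 bp, and Gucy2e, a retinal guanylate cyclase gene, had 7347, 7345, 7253 and 7957 bp. The groups overlapped in the last 3.

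Covered ends were also counted by the direction of the next gene. Of marked genes whose next gene lay 20 to 50 kb away, the end was covered at 9.40% of 681 with the next gene on the same strand and 8.91% of 550 with it on the opposite strand. At 50 to 200 kb these shares were 9.12% of 329 and 14.1% of 270. The median run was 1919 and 1933 bp in the first pair and 1888 and 1718 bp in the second. At 200 kb and more the end was covered at 7.89% of 38 and 10.7% of 28 genes, with median runs of 1885 and 4405 bp from 3 genes each. No test was made of these shares.

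The peaks over the 187 ends were among the strongest of their lists. Their median −log10 q was 74.5 in CTR 1 and 52.7 in CTR 2, against 50.6 and 57.7 in NPM1 KD 1 and 2, at the 94.9 to 96.2 percentile of the list. Their median fold over background was 8.76, 8.80, 8.03 and 7.68, against 2.0 to 2.33 for whole lists. Both values depend on depth and on the width of a peak and were not compared between groups. The 187 ends were chosen for a peak called in all 4 libraries, a choice that weak peaks pass less often. Peaks shared by all libraries elsewhere were not compared.

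The poly(A) signal and TGTGT were counted in each class of genes. AATAAA or ATTAAA, searched on the gene's strand in the last 50 bases, was found in 80.7% of the 187 genes, in 90.1% of the 121 genes with the end covered in some libraries, in 79.5% of the 1590 marked genes with a bare end, in 76.1% of the 113 marked in some libraries, in 69.3% of the 2618 unmarked genes and in 71.8% of all protein-coding genes. TGTGT in the first 100 bases past the end was found in 32.6%, 39.7%, 31.8%, 38.1%, 26.5% and 28.3% in the same order. Median GC content of the first 2 kb was 45.5%, 44.7%, 44.5%, 43.65%, 41.9% and 45.0%, again in this order. Within the 187 genes, Spearman's rho of run with this GC content was -0.32, and with the repeat-masked share of the window -0.07, as descriptions over genes that share libraries.

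The gene groups are read against all isolated genes, of which 187 of 4629, 4.04%, and 187 of the 1897 marked in all libraries, 9.86%, had covered ends. Of the factors for cleavage, polyadenylation and termination, 4 were isolated, all 4 were marked, and 1 had its end covered in all libraries. This was Cpsf6, of cleavage factor I, with runs of 3002, 1144, 4020 and 3175 bp in CTR 1, CTR 2, NPM1 KD 1 and NPM1 KD 2 (log2 change 0.64 ± 0.42, limma adjusted p = 0.762). Papola, a poly(A) polymerase gene, had its end covered in CTR 1 alone, with a run of 154 bp. The windows of Cpsf2 and Papolg were bare.

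Of 13 isolated neuroblastoma and sympathetic neuron genes, 11 were marked and 2 had covered ends in all libraries, among them Mycn. Mycn, the oncogene of neuroblastoma, had runs of 679, 572, 650 and 807 bp in CTR 1, CTR 2, NPM1 KD 1 and NPM1 KD 2, with overlap of the groups. Elavl2, a neuronal RNA-binding protein gene, had 2644, 1903, 4975 and 5429 bp of its window covered (0.93 ± 0.15, limma adjusted p = 0.340).

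The window of Isl1, a LIM homeobox gene, had 604 and 461 bp covered in the CTR libraries and 992 and 1315 bp under NPM1 KD, away from the gene end. Nefm, a neurofilament gene with a bare body, had 246 and 777 bp covered in CTR and 0 in NPM1 KD. Over the list, NPM1 KD was above CTR with no overlap at 3 windows, below at 1, and 7 windows were bare in all libraries. Among the 503 isolated windows covered in at least 1 library, 40.8% were above and 5.37% below. The list is too small to be set apart from these shares. None of its windows passed the limma threshold.

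The 20 isolated genes of neuronal adhesion and the synapse, among them Cadm1 and Cdh2, had no covered base in any of their windows. Of these genes, 6 were marked. Among all isolated genes 4126 of 4629 windows were bare in every library, so a bare window was the usual case. Of 5 growth and cell cycle genes, Myc alone had a covered end in all libraries. Its runs were 4290, 3798, 4009 and 5571 bp, with overlap, and its window held 4579, 4001, 6249 and 6701 bp (log2 change 0.50 ± 0.08, limma adjusted p = 0.347). All 6 isolated chromatin regulators, including Hdac2 and Chd7, were marked, and none had a covered end. Of 5 genes of other tissues none was marked, while the window of the macrophage gene Lyz2 held 2318 to 2681 bp in all libraries. Over all isolated genes the median covered length was 0 bp, and 312 of 4629 windows were covered in all libraries.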

How the data were processed

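N2a cells carrying shControl or shNpm1 were compared with 2 H3K79me2 ChIP-seq libraries each. According to the methods and the submitters' processing notes, reads were aligned to mm10 (GRCm38) with Bowtie2 2.3.4.1 and peaks were called with MACS2. The notes give MACS2 2.2.6, the methods another release. Each library had 1 narrow and 1 broad list, called per library. MACS2 is stated to have run with default parameters. Whether the input served as background, and what made the broad lists, is not given in the sources used here. The narrow peak names lack the word filtered that the broad ones carry.

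The deposited score is 10 times the −log10 q. The authors also deposited the fold over background as a ratio, the −log10 p and −log10 q, and in the narrow lists the summit position. Read counts were not analysed here. Fold and −log10 p of narrow peaks gave the background pileup, assuming Poisson p-values (checked on simulated peaks).

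Peaks of a library were merged. Covered bases and runs were measured from the broad lists in Python 3.11.15 (pandas 2.3.3, numpy 2.4.6, scipy 1.17.1; plots by matplotlib 3.10.9). A gene was marked when a peak overlapped its body or the 3 kb upstream. The exact permutation test (two-sided) served for values per library, and limma 3.58.1 (R 4.3.3) for values per gene, on log2(bp + 1000), Benjamini-Hochberg adjusted over all protein-coding genes tested, at a threshold of 0.05. Windows entered with any coverage, runs with a covered end in all libraries. This tests the extent of called peaks, not read counts. limma was tested on simulated data.

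The rule for named genes took the 8 longest runs, the 6 largest gains and losses of window coverage with groups apart, the 4 largest windows with a bare end, up to 4 isolated genes per list, and genes past the limma threshold. Of the study's genes Npm1, Dot1l, Ctcf, Ezh1, Ezh2 and Kdm3a, none was isolated. Clone-style symbols were left out, 11 of the 187 covered ends and 14 of the 205 windows with a gain. Some genes and 1 sequence that the rule names are not reported here. Members, lists and tests were chosen with earlier results of these data known. Separate passages and transfections are stated for the replicates. Alternatives were narrow lists, −log10 q of at least 5, lists of equal size (34845 peaks), joining of peaks up to 1 kb apart, a 40 kb rule, windows of 5 and 10 kb, other offsets and filters, a replicate block and leaving out each library.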

Additional observations from a re-analysis of the deposited data

How the results depend on the processing

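The differences of the 4 values per library (share of window bases covered, ends covered, median run, window per body bases) kept their direction under every alternative run, with the exact p at or above 0.33 where all 4 libraries were kept. No p was computed with a library left out. Leaving out each library gave differences of 0.174 to 0.328 percentage points in share covered, 18.5 to 51.5 ends, 43.25 to 389.5 bp in median run, lowest without CTR 2 in each, and 0.00169 to 0.00329 window bases per body base.

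Isolated windows or runs called by limma were 0 in the reported fits and 0 without any 1 library. Of isolated windows, 1 of 325 was called with −log10 q of at least 5 (Myo16, limma adjusted p = 0.0226). With an offset of 200 bp it was 1 of 503 (Cdc40, limma adjusted p = 0.0415), and with all windows kept 1 of 4629 (Cdc40, limma adjusted p = 0.0125). Of isolated runs, 2 of 137 were called with narrow lists (Zfp36l2 and Abhd17b, smallest limma adjusted p = 0.0151). With peaks up to 1 kb apart joined it was 3 of 198 (Atpif1, Ing2 and Pcdh1, smallest limma adjusted p = 0.00439). All of these windows and runs were longer or more covered in NPM1 KD, and the cause was not tested. Over all genes, 1520 runs were tested with narrow lists and 2174 with joined peaks. Windows of all genes called rose from 0 of 8682 to 30 of 7147 with −log10 q of at least 5. They were 6 of 8682 with the offset of 200 bp and 6 of 20807 with all windows kept. With a 10 kb window they were 2 of 6955, and with a mean of at least 1000 bp 2 of 7184. Runs of all genes called went from 38 to 14 with narrow lists, 21 with the offset of 200 bp, 61 with joined peaks, 46 without CTR 1 and 0 without any other library.

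Of isolated windows covered in all libraries, those above CTR in both NPM1 KD libraries were 93 of 209 with −log10 q of at least 5 and 66 of 140 with the 40 kb rule, and those below were 49 of 343 with narrow lists and 13 of 140 with the 40 kb rule. For runs, those above were 48 of 137 with narrow lists and 40 of 97 with the 40 kb rule, and those below 9 of 97 with the 40 kb rule. With 1 library left out, where fewer values must be in order, the ranges were 189 to 222 above and 36 to 56 below for windows, and 97 to 117 above and 24 to 45 below for runs. The same orders were not counted over all protein-coding genes under these settings. Whether isolated ends differ from other ends there can therefore not be read.

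Same-numbered libraries deviated together with a correlation of 0.05 for windows and 0.09 for runs, so they share a number and are not shown to be pairs. The methods tie each replicate to its own passage and transfection batch and do not say that same numbers share them across groups. With the replicate number as a block, 0 isolated windows and 0 isolated runs were called (smallest limma adjusted p = 0.297 and 0.228), and calls over all genes went from 38 to 0 for runs and stayed at 0 for windows. Depth limits what a bare window shows: it means that no peak was called.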
